A study of Macaca fascicularis with 3 samples.

Results

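The cells described here are INHA-low supporting cells, mouse somatic cells of the fetal ovary that carried supporting cell transcripts but little INHA. They were chosen barcode by barcode from the counts of 3 single-cell RNA libraries. A barcode was a member if it had at least 1000 unique molecular identifiers (UMIs, each standing for a captured RNA molecule) and under 1% of them in 13 mitochondrial genes. INHA had to be below 1500 counts per 1000000 UMIs (CPM), UPK3B below 2 UMIs, and LTF and EHF together below 3 UMIs. The summed UMIs of 8 supporting cell genes (WNT4, AMHR2, FOXL2, FST, LGR5, IRX3, ITGA6 and KRT19) had to be 3 or more, and larger than those of 8 stromal genes (COL1A1, COL1A2, COL3A1, PDGFRA, DCN, LUM, TCF21 and POSTN). This gave 1138 cells of 7827 deposited barcodes, or 27.8% of the 4099 barcodes that met the depth and mitochondrial limits, called mouse barcodes below. The 3 libraries were made with mouse cells of embryonic days E13.5, E14.5 or E15.5, and held 376, 219 and 543 members in that order, which all series of 3 values below follow.

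The study made xenogeneic reconstituted ovaries (xrOvaries), aggregates in which cynomolgus monkey germ cells derived from embryonic stem cells grow among mouse ovarian somatic cells. The monkey line in every library was 15XRi-AGVT#7, labelled wildtype, which carries TFAP2C-EGFP and DDX4-tdTomato reporters. The 3 libraries differed in the age of the mouse somatic cells at aggregation, and each carried the culture label ag49+52. The strain and genotype of the mouse cells are not in the labels, and each stage is 1 library with no replicate. After trypsin treatment the mouse cells were sorted as reporter-negative live events of low forward scatter width, the germ cells as reporter-positive live events of high width, and both were mixed again before capture. The reads were counted on 26017 monkey features only, so a mouse transcript was seen where it matched a monkey gene. Levels can therefore be compared for the same gene between cells and libraries, not between genes.

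Pregranulosa cells are the supporting cells of the fetal ovary, which enclose germ cells and later form the granulosa layer of follicles. WNT4 and RSPO1 signalling, acting through beta-catenin, and the factor FOXL2 are central to their fate, while KITLG (the ligand of the germ cell receptor KIT) and retinoids reach the germ cells beside them. In the mouse, pregranulosa cells arise in an early wave in the medulla and a later one that draws on the LGR5-expressing surface epithelium. INHA encodes the alpha subunit of inhibins, and AMH the anti-Müllerian hormone, both secreted by differentiating granulosa cells. AMHR2 is the receptor of AMH.

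Other mouse barcodes served for comparison. INHA-high cells (582, 243 and 446) were at or above the INHA limit. Stromal cells (637, 223 and 629) passed the same limits with the larger sum over the 8 stromal genes. UPK3B-positive cells, with the transcript of a uroplakin of mesothelium and surface epithelium, numbered 15, 1 and 73. The mitochondrial limit kept most germ barcodes out, and no doublet caller was run.

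Summed over members, the libraries held 3077490, 1970461 and 3838929 UMIs, and the median member held 7400.5, 7254 and 5908. A count of 3 UMIs, used as the floor of detection, stood for 0.975, 1.52 and 0.781 CPM. Germ cell RNA, counted as 3 or more UMIs of 10 germ cell markers such as DDX4 and DAZL, was found in 3, 4 and 8 members, which held 1.81%, 11.4% and 3.90% of the members' UMIs. In E14.5, 2 such barcodes held 86962 and 108049 UMIs. The libraries shared cell barcodes: E13.5 and E15.5 had 643 in common (22.9% and 18.6% of their barcodes), E13.5 and E14.5 had 199 (7.09% and 12.7%), and E14.5 and E15.5 had 212 (13.55% and 6.14%). Among the members, 2 barcodes were shared, both in E15.5 and both with germ cell RNA. Some results below are given with and without the 15 members that held germ cell RNA. The others, among them the marker sums, include these members unless stated.

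The 5 markers given for these cells (ITGA6, WNT4, AMHR2, LGR5 and FST) belong to the rule, so their levels describe the choice and support nothing. WNT4, a signal of ovarian fate, stood at 554, 490 and 626 CPM in the summed members. It was 568 ± 65.5 CPM in INHA-high cells and 784 ± 196 in stromal cells (SD, n = 3 libraries), so WNT4 alone did not set the members apart. AMHR2 stood at 413, 165 and 453 CPM, beside 416, 176 and 491 in INHA-high cells and 22.8, 23.3 and 89.1 in stromal cells. At least 1 AMHR2 UMI was seen in 88.3%, 74.0% and 86.9% of members, against 6.28%, 8.07% and 13.99% of stromal cells, whose median depths were lower (5309, 4497 and 3957 UMIs). With each cell thinned to 3000 UMIs the shares were 69.4%, 44.3% and 70.8% of members and 3.90%, 4.17% and 13.8% of stromal cells. ITGA6, a laminin receptor subunit, was at 605, 843 and 537 CPM in members and at 943, 1097 and 1042 in INHA-high cells, and the groups did not overlap.

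FST, which encodes the activin-binding follistatin, read 127, 96.4 and 80.0 CPM in members and 54.4, 80.4 and 55.3 in INHA-high cells. FOXL2, the ovarian forkhead factor, read 32.8, 28.9 and 20.3 CPM in members, 48.4, 48.5 and 47.5 in INHA-high cells, and 27.6, 24.2 and 13.9 in stromal cells. FOXL2 in members was thus nearer to the stromal level than to the INHA-high one. IRX3, a homeobox factor of pregranulosa cells, read 241, 161 and 324 CPM, against 148, 122 and 161 in INHA-high cells. LGR5, an R-spondin receptor, read 9.42, 5.08 and 28.9 CPM in members and 0.854, 0 and 1.88 in INHA-high cells. Only 5.85%, 3.65% and 11.97% of members had an LGR5 UMI, against 0.687%, 0% and 1.35% of INHA-high cells, a class of similar depth. Thinned to 3000 UMIs, the members' shares were 1.95%, 0.476% and 6.82%. UPK3B-positive cells also carried AMHR2, at 459, 121 and 384 CPM, and IRX3, at 321, 243 and 384, where the E14.5 values are 1 and 2 UMIs. With FOXL2 low and an LGR5 UMI in a minority of members, the label pregranulosa-like is used here for the cells the rule chose.

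INHA itself was not absent. It stood at 579, 838 and 420 CPM in the summed members, against 3929, 2826 and 3490 in INHA-high cells and 32.1, 132 and 45.3 in stromal cells. No INHA UMI was counted in 81, 25 and 220 members (21.5%, 11.4% and 40.5%). The per-cell levels ran up to the limit without a gap, as the histogram of INHA per cell shows. Members within 10% below the limit numbered 17, 27 and 21, and cells within 10% above it 31, 17 and 19. The closest cells on either side read 1499.7 and 1507.8 CPM in E13.5, 1493.5 and 1512.2 in E14.5, and 1492.4 and 1506.2 in E15.5. The sum over supporting genes was exactly 3 in 5, 5 and 14 members, while 8, 3 and 8 barcodes fell short of the rule with a sum of 2. Members are therefore the lower part of the counted INHA range, cut at a chosen value. The lowest bar, below 250 CPM, held 130, 41 and 298 of them. Counting error in single cells can fill a gap, so a graded level and separate groups cannot be told apart here.

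**Figure D1:**
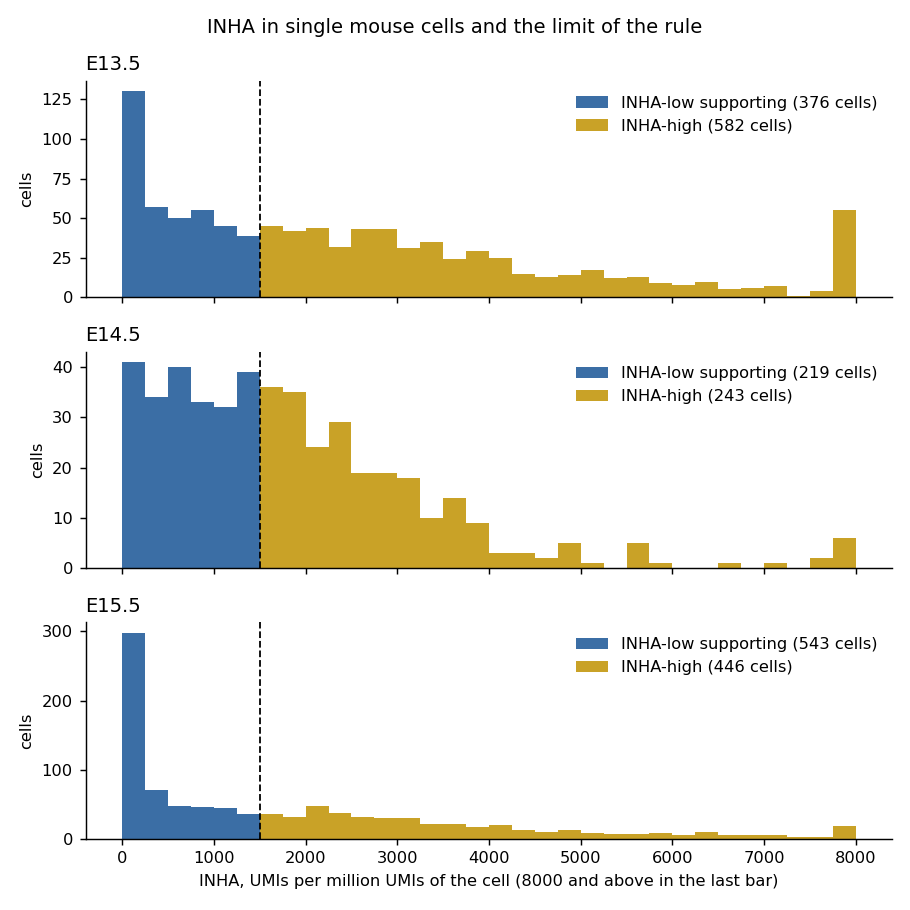
Number of cells (y axis) by INHA level per cell (x axis, CPM of the cell, 250 per bar, cells at 8000 and above in the last bar) in each of the 3 libraries, with INHA-low supporting cells and INHA-high cells in separate colours and the limit of 1500 CPM as a dashed line. Cells occupy the bars on both sides of the limit without a gap, and the members fill the lowest bars, 81, 25 and 220 of them with no INHA UMI.

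Endothelial, immune and red blood cell markers were low or at 0 in the members. The sums in this paragraph include the members that held germ cell RNA, which carried 11.4% of the members' UMIs in E14.5. Their part in these sums was not tested. TIE1, CLDN5, C1QA, CSF1R, LYZ and CD3E were at 0 in every class, so a 0 need not mean absence. Of 12 endothelial markers, TIE1, TEK, EMCN and CLDN5 were at 0 in all 3 libraries. The list summed to 19.5, 49.2 and 28.4 CPM, against 9.815, 5.84 and 13.7 in INHA-high cells. Of 11 immune markers, C1QA, CSF1R, CD14, LYZ and CD3E were at 0. The sum was 0.650, 8.12 and 13.3 CPM, against 0.213, 0 and 2.15. Red blood cell markers summed to 0.325, 0.508 and 1.56 CPM. The 15 stromal markers outside the rule summed to 1294, 1006 and 1286 CPM, against 4813, 4250 and 5992 in stromal cells. The 10 surface epithelial and mesothelial markers summed to 414, 299 and 463 CPM, against 280, 216 and 254 in INHA-high cells. UPK1B and MSLN were at 0, in UPK3B-positive cells as well. Sertoli markers, a list that holds AMH, summed to 143, 202 and 107 CPM, against 422, 486 and 403 in INHA-high cells. Pericyte and smooth muscle markers summed to 144, 272 and 151 CPM, tubal and mesonephric markers, which include EMX2, to 394, 389 and 468, neural markers to 53.0, 76.1 and 45.9, steroidogenic markers to 17.9, 8.63 and 36.7, and germ cell markers to 28.3, 79.7 and 70.3.

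Because INHA ran through the limit without a gap, levels of other genes were laid out over 5 ranges of INHA. These were members without an INHA UMI, members up to 750 CPM, members from 750 to 1500 CPM, and INHA-high cells below and above 3000 CPM. Cells with germ cell RNA were left out, and these ranges and the genes shown were chosen after the data were seen. Genes that follow INHA from cell to cell must differ between such ranges, so these levels are a description with no test. AMH was higher in each next range in E13.5, at 1.82, 31.0, 132, 274 and 496 CPM, and ran from 43.5 to 508 in E14.5 and from 1.59 to 455 in E15.5. NR5A2, a nuclear receptor of granulosa cells, read 20.04, 49.1, 94.8, 133 and 180 CPM in E13.5, 21.7, 98.4, 174, 152.5 and 169.7 in E14.5, and 10.3, 19.2, 70.3, 90.9 and 114 in E15.5. In E14.5 it was thus highest in members just below the limit. KITLG read 117, 221, 338, 391.8 and 359 CPM in E13.5, 94.2, 156, 298, 378 and 266 in E14.5, and 70.6, 127, 298, 407 and 364 in E15.5, and so was highest in INHA-high cells below 3000 CPM in all 3 libraries.

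Other transcripts ran the opposite way. LHX9, a homeobox factor of the early gonad and its surface epithelium, read 170, 68.8, 20.9, 10.5 and 17.4 CPM in E13.5, 326, 25.7, 23.2, 7.92 and 16.8 in E14.5, and 278, 128, 38.1, 19.8 and 12.5 in E15.5. KRT19 read 272, 119, 51.3, 9.05 and 6.59 CPM in E13.5 and 591, 352, 108, 47.4 and 12.5 in E15.5. GPM6A, a membrane glycoprotein found in mesothelium, was far higher in members without an INHA UMI in E13.5 and E14.5, at 54.7 and 217 CPM there and 5.28 CPM or less in every other range. ALDH1A2, which makes retinoic acid, was highest in members up to 750 CPM of INHA in all 3 libraries (296, 288 and 219 CPM) and lowest in INHA-high cells. EMX2, a homeobox factor of the urogenital epithelium, was flat, between 307 and 478 CPM over all ranges and libraries.

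**Figure D2:**
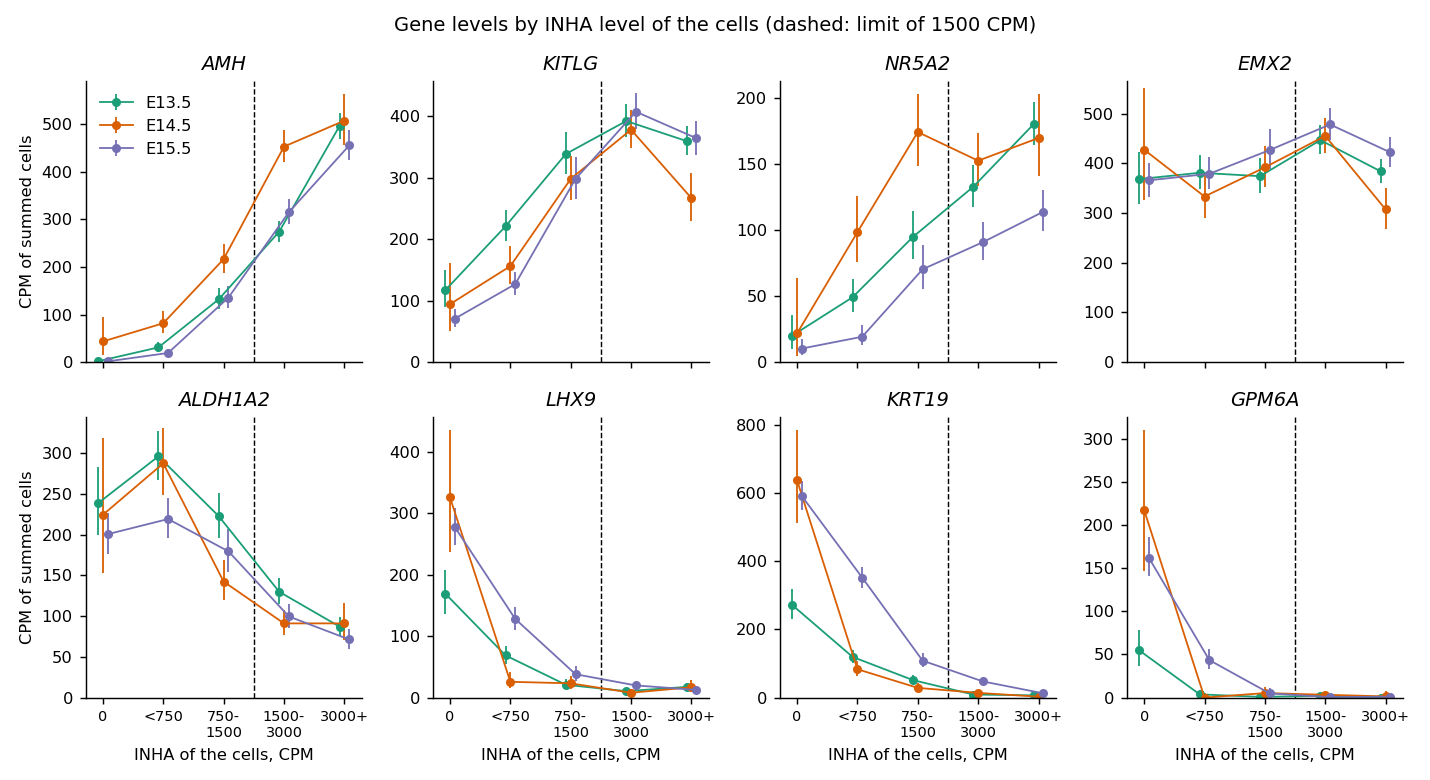
Level of 8 genes (CPM of summed cells, linear axis from 0) over 5 ranges of INHA per cell (x axis, CPM), with 1 coloured line for each library, exact Poisson 95% intervals as bars and the limit of 1500 CPM dashed. AMH, NR5A2 and KITLG are lowest in members without an INHA UMI, LHX9, KRT19 and GPM6A are highest there, and EMX2 stays between 307 and 478 CPM.

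Which genes set the members apart from INHA-high cells was tested over all genes outside the rule. Members carried more of the epithelial keratins KRT13 and KRT7, of LHX9 and RSPO1, and of the retinoic acid enzymes ALDH1A2 and RDH10. They carried less AMH, NR5A2 and other genes of granulosa differentiation. KRT13 is uncertain, since which mouse reads matched this monkey keratin was not checked. The calls of KRT13, KRT7 and LHX9 were lost without the members that held a KRT19 UMI. The test covered 9239 genes and called 357 (3.86%) higher in members and 394 (4.26%) lower, 8.13% in either direction, with 254 and 90 of them at least 2-fold. It was edgeR's quasi-likelihood test on UMIs summed per library and class, with the library as a block, at a Benjamini-Hochberg adjusted p under 0.05. Adjusted p-values below come from this test, and SE is the standard error of the log2 fold change. The classes were cut from the same cells that were tested, so genes that follow INHA between cells differ by construction. Members also had to reach a sum over supporting genes that includes KRT19, which was not asked of INHA-high cells. Genes that follow KRT19 or another gene of that sum can thus be higher in members through the rule. For such genes the adjusted p-value cannot separate a difference between the classes from the choice of cells. The repeats are libraries of different stages.

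Among genes higher in members, CCL5 had the largest change. This chemokine was at 22.1, 37.1 and 104 CPM in members and at 0, 2.25 and 1.34 in INHA-high cells (log2 fold change 5.70 ± 0.44 SE, adjusted p = 0.000602). The members of all 3 libraries lay above every INHA-high sum. The call was kept when each library was left out in turn, and without the KRT19-positive members the difference was 3.96. Immune markers summed to 0.650, 8.12 and 13.3 CPM in members and to 0.213, 0 and 2.15 in INHA-high cells, and so moved in the same direction, with CD3E at 0 in both. Their part in the CCL5 difference was not tested.

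GPM6A stood at 11.7, 18.3 and 80.8 CPM in members and at 0.854, 2.69 and 1.88 in INHA-high cells (4.36 ± 0.67, adjusted p = 0.00422). KRT13, a keratin of stratified epithelium, stood at 55.2, 46.2 and 208 CPM against 1.71, 4.94 and 19.6 (3.69 ± 0.46, adjusted p = 0.00162). KRT7, a keratin of simple epithelium, stood at 10.1, 13.2 and 61.0 CPM against 2.35, 0.898 and 5.10 (3.10 ± 0.51, adjusted p = 0.00569). All 3 were highest in the members of E15.5, and no library overlapped with its INHA-high cells. Without the KRT19-positive members the log2 differences were 1.59, 0.02 and 1.14, and none of the 3 calls was kept.

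CRYAB, a small heat shock protein, stood at 32.8, 22.3 and 44.3 CPM in members against 5.55, 6.29 and 3.49 (2.71 ± 0.40, adjusted p = 0.00361). PPP2R2B, a regulatory subunit of protein phosphatase 2A, stood at 19.8, 19.3 and 31.5 CPM against 2.35, 3.59 and 3.76 (2.89 ± 0.43, adjusted p = 0.00361). These calls and that of CCL5 were kept without the KRT19-positive members and with each library left out. NDST4, which modifies heparan sulfate, and RTN1, a reticulon of the endoplasmic reticulum, were higher by 3.76 and 2.51 on the log2 scale. Both lost their call when a library was left out and without the KRT19-positive members. The rule also named CDKN1C, a cell cycle inhibitor, at 1.95, 54.8 and 83.4 CPM against 0.854, 0.898 and 0.805 (5.45 ± 1.18, adjusted p = 0.0196). Without the members holding germ cell RNA, CDKN1C had too few counts to be tested.

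AMH led the genes that were lower in members. It stood at 63.0, 142 and 43.8 CPM against 396, 470 and 380 in INHA-high cells (log2 fold change -2.54 ± 0.35, adjusted p = 0.00247), with no overlap. An AMH UMI was seen in 11.7%, 34.2% and 8.84% of members and in 52.1%, 70.0% and 61.4% of INHA-high cells. ARHGAP31, a regulator of the small GTPases CDC42 and RAC1, stood at 73.4, 153 and 81.3 CPM against 222, 343 and 348 (-1.65 ± 0.14, adjusted p = 0.000602). SERPINE2, a protease inhibitor of granulosa cells, stood at 14.6, 12.2 and 11.5 CPM against 38.2, 32.3 and 39.7 (-1.56 ± 0.17, adjusted p = 0.00116). The members' values for SERPINE2 hardly varied, and its call was kept under every alternative tried for the 20 named genes.

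The remaining 7 genes of this group were lower by 1.56 to 1.85 on the log2 scale. They were SLC18A2 (a vesicular monoamine transporter, 19.4 ± 7.79 CPM in members and 66.5 ± 8.66 in INHA-high cells), LECT1 (chondromodulin), SYNM (an intermediate filament protein), ME3 (a mitochondrial malic enzyme), TOX2 (an HMG-box factor), PRSS23 (a serine protease) and OMD (osteomodulin). All 10 of the lower genes kept their call without the KRT19-positive members, while 6 of the 10 higher ones lost it and CDKN1C could not be tested. Leaving out each library in turn kept 11 of the 20 named genes.

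**Figure D3:**
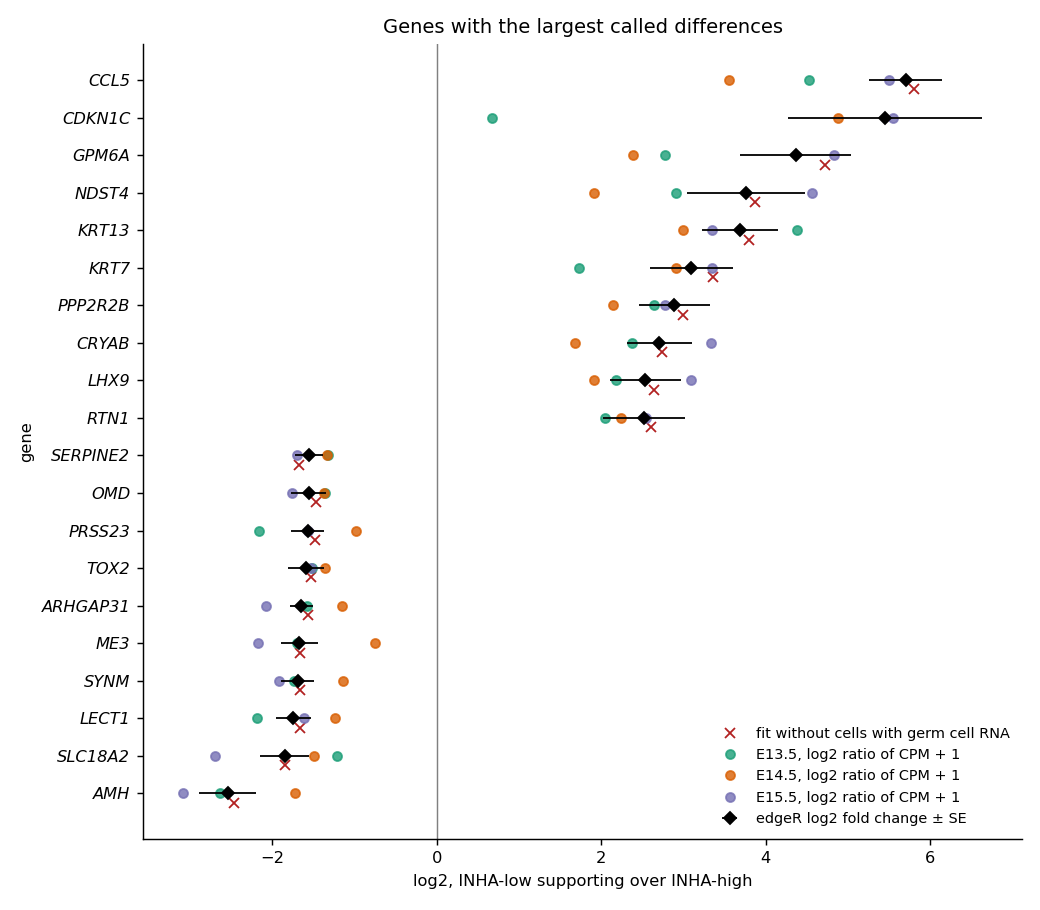
Log2 difference of INHA-low supporting over INHA-high cells (x axis) for the 10 genes named in each direction (y axis), with the edgeR log2 fold change ± SE as diamonds, the log2 ratio of CPM + 1 in each library as coloured points, and the fit without cells with germ cell RNA as crosses. Every point lies on the side of its fold change, from CCL5 at 5.70 to AMH at -2.54, and CDKN1C has no cross because it could not be tested in that fit.

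By function, few calls were kept with 1 library fewer: of 37 list members named by size of change and not among those 20, DAG1 alone kept its call with each library left out in turn. The pregranulosa genes outside the rule went both ways. Of 21 found, 16 had enough counts for the test, of which 3 were higher and 2 lower, and the median log2 difference was 0.05, beside 0.01 over all genes. LHX9 stood at 67.9, 43.1 and 154 CPM in members against 14.3, 10.8 and 17.2 (2.53 ± 0.43, adjusted p = 0.00721). RSPO1, the R-spondin that amplifies WNT signals, stood at 15.3, 6.09 and 8.60 CPM against 2.99, 0.898 and 1.34 (2.42 ± 0.39, adjusted p = 0.0051). The members of every library lay above their INHA-high cells for both. Without the KRT19-positive members LHX9 differed by 1.44 and lost its call (edgeR adjusted p = 0.0884), while RSPO1 kept it, and both lost theirs with a library left out. CDKN1B, the inhibitor p27 that marks arrested pregranulosa cells, stood at 376, 298 and 374 CPM against 238, 213 and 244 (0.57 ± 0.11, adjusted p = 0.0129).

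KITLG stood at 245, 202 and 151 CPM in members against 373, 342 and 383 (-0.91 ± 0.20, adjusted p = 0.0237), and the nuclear receptor NR2F2 was lower by 0.42 on the log2 scale. KITLG lost its call under DESeq2 and without the KRT19-positive members, where it differed by -0.59. The early gonadal factors EMX2 (362 and 422 CPM), WT1 (106 and 145.3) and GATA4 (42.6 and 40.3, means of members and INHA-high cells) did not pass the test.

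The granulosa differentiation list was lower in members. Of 16 tested genes of 22, 8 were lower, none was higher (none at an unadjusted p under 0.05 in edgeR and none in DESeq2), and the median was -0.97. PRKAR2B, a regulatory subunit of protein kinase A, stood at 247, 391 and 164 CPM against 481, 635 and 372 (-0.97 ± 0.12, adjusted p = 0.00155). GJA1, the gap junction protein connexin 43, stood at 374, 522 and 250 CPM against 601, 678 and 434 (-0.64 ± 0.10, adjusted p = 0.00361). Within each library the members were lower, although the members of E14.5 exceeded the INHA-high cells of E15.5 for both genes. NR5A2 stood at 61.1, 118 and 30.0 CPM against 159, 158 and 101 (-1.19 ± 0.20, adjusted p = 0.00762). AMH, SLC18A2 and SERPINE2, given above, the BMP receptor BMPR1B (-1.27) and the estrogen receptor ESR2 (-1.32) complete the 8. Without the KRT19-positive members 6 of the 16 were lower. The call of ESR2 was not kept there or under DESeq2.

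WNT pathway genes went both ways: of 20 tested of 28, 4 were higher and 2 lower (median 0.28). AXIN2, a feedback target of WNT signals, stood at 72.5, 57.9 and 89.1 CPM in members against 38.2, 40.4 and 58.8 (0.68 ± 0.14, adjusted p = 0.0149). SFRP1, a secreted WNT inhibitor, stood at 24.7, 49.7 and 15.1 CPM against 53.1, 87.1 and 51.5 (-1.22 ± 0.16, adjusted p = 0.00208). TCF7L2, a nuclear partner of beta-catenin, was at 131 ± 12.6 against 193 ± 18.0 CPM (-0.58, adjusted p = 0.00184). The ligand WNT9A, the factor LEF1 and the receptor LGR4 were the other higher genes, the first 2 of them at 3.41 and 5.68 CPM on average. AXIN2, WNT9A and LEF1 lost their calls without the KRT19-positive members.

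Retinoid genes included 3 higher of 12 tested of 17, and a median of 0.52. ALDH1A2 stood at 257, 182 and 197 CPM against 106, 91.1 and 86.4 (1.15 ± 0.18, adjusted p = 0.0044). RDH10, which makes the retinaldehyde that ALDH1A2 uses, stood at 33.1, 25.9 and 35.2 CPM against 10.5, 18.0 and 9.93 (1.38 ± 0.25, adjusted p = 0.00908). ALDH1A3, another retinaldehyde dehydrogenase, averaged 7.5 against 2.03 CPM (1.84 ± 0.38, adjusted p = 0.0167). The 3 genes encode enzymes of retinoic acid synthesis, and all kept their calls without the KRT19-positive members, though each lost it when 1 of the libraries was left out.

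Of the 17 S phase genes and 16 G2 and M phase genes tested, none was called by edgeR or DESeq2, while 4 and 1 had an unadjusted p under 0.05 in edgeR, all higher in members (medians 0.45 and 0.71). Among 9 cell cycle inhibitors tested, the antiproliferative gene BTG2 stood at 1517, 987 and 1470 CPM against 948, 664 and 631 (0.80 ± 0.15, adjusted p = 0.0117). TOB1 and CDKN1C were also higher, and BTG1 was lower (-0.49). The calls of TOB1 and BTG1 were not kept without the KRT19-positive members. Of the 17 tested dissociation stress genes, ATF3 (160 ± 42.5 against 46.6 ± 14.9 CPM, adjusted p = 0.0102) and KLF4 were higher, and FOS, at 3637 and 3220 CPM, was not called. Without the KRT19-positive members KLF4 kept its call and ATF3 did not. In the epithelial list 3 of 13 were higher: KRT7, VIM, an intermediate filament protein of mesenchyme, and EPCAM, an adhesion molecule. The call of EPCAM was not kept under DESeq2 or without the KRT19-positive members.

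Smaller changes were found elsewhere. Among 7 steroid genes tested, the cholesterol carrier STAR and the hormone receptors ESR1 and NR3C1 were higher, of which NR3C1 alone kept its call without the KRT19-positive members (ESR1 lost it under DESeq2 as well). In the BMP and TGF-beta list of 21 tested, ID4, an inhibitor of helix-loop-helix factors, was higher, while TGFB1, TGFBR1 and BMPR2 were lower, calls that all 3 lost without the KRT19-positive members. ID4 stood at 12.7, 76.1 and 70.8 CPM in members (2.13 ± 0.37, adjusted p = 0.00817), and its difference was 0.79 without the cells holding germ cell RNA. DAG1, dystroglycan, a receptor for laminin, stood at 606, 697 and 435 CPM against 967, 1051 and 879 (-0.78 ± 0.08, adjusted p = 0.00103), while the basement membrane collagen COL4A1 was higher by 1.19. FGF9, a growth factor, was the only 1 of 10 tested ligands that was called (8.45 and 2.59 CPM). Its call was not kept under DESeq2 or without the KRT19-positive members. In other lists the counts higher and lower were 0 and 1 of 8 for NOTCH (RBPJ) and 0 and 1 of 13 for cholesterol synthesis (FDPS). They were 3 and 1 of 17 for glycolysis and hypoxia (1 and 1 without germ cell RNA). Over all genes 8.13% were called in either direction. The counts for ligands, NOTCH, cholesterol synthesis, basement membrane and dissociation stress genes were near that share and say nothing about those lists.

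Against stromal cells the members differed at more genes, with 1474 of 9239 genes (16.0%) higher and 1585 (17.2%) lower, 33.1% in either direction. The rule split these classes by which of its gene sums was larger, so genes that follow either sum differ by construction. Most tested genes of the epithelial junction, granulosa and pregranulosa lists were higher in members, and most of the basement membrane, dissociation stress and ligand lists were lower. CELA3B, an elastase with near-identical copies and therefore uncertain, stood at 274, 377 and 293 CPM against 5.91, 30.2 and 9.05 (4.61 ± 0.39, adjusted p = 1.36e-05). WNT6, a WNT ligand, stood at 156, 62.4 and 70.1 CPM against 6.48, 6.90 and 7.66 (3.72 ± 0.24, adjusted p = 2.36e-06). ALDH1A2 stood at 257, 182 and 197 CPM against 12.95, 31.9 and 16.7 (3.42 ± 0.23, adjusted p = 3.18e-06). None of these overlapped between classes. KCNN2 (a calcium-activated potassium channel), TMEM114, CNTN4 (a contactin), LECT1, PAK3 (a kinase), SYBU (a kinesin adaptor) and MLF1 were higher by 3.49 to 4.01.

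On the stromal side, CLEC3B (tetranectin) had 0 of 8886880 UMIs in members and 200 of 7581600 in stromal cells, at least 78.1-fold lower with 3 counts over the group as the floor. LRRC17, a secreted leucine-rich repeat protein, stood at 1.95, 2.03 and 1.30 CPM in members against 134, 86.3 and 89.1 (-6.06 ± 0.22, adjusted p = 6.45e-08). The matrix genes MFAP5 and COL15A1 were at 0.217 and 0.759 CPM in members and at 34.2 and 66.9 in stromal cells. FMO1, FIBIN, ASIP, EMP1, OLFML1 and CD248 completed the 10. All 20 genes named in this contrast kept their calls under every alternative, including each library left out.

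Of 16 pregranulosa genes tested 10 were higher and 3 lower (median 1.004, beside 0.06 over all genes). EMX2 stood at 373, 336 and 376 CPM against 71.2, 90.6 and 112 (1.86 ± 0.12, adjusted p = 2.18e-06), and KITLG at 245, 202 and 151 against 16.6, 47.5 and 27.5 (2.73 ± 0.27, adjusted p = 3.84e-05). The 2 genes did not overlap between members and stroma. NR2F2, a receptor of interstitial cells, was at 235 ± 29.8 against 1724 ± 84.6 CPM (-3.03 ± 0.10, adjusted p = 3.11e-08). Of 16 granulosa genes tested, 10 were higher, AMH among them (63.0, 142 and 43.8 against 2.25, 48.3 and 7.66 CPM; 2.39 ± 0.51, adjusted p = 0.00479), and 4 lower. AMH in members was thus between that of stromal cells and that of INHA-high cells.

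In the epithelial and junction list 9 of 13 were higher, led by CGN, the tight junction protein cingulin (69.0 ± 6.16 against 7.76 ± 5.51 CPM, adjusted p = 4.93e-05), OCLN, CDH2 and DSP. Cholesterol synthesis genes were higher in 6 of 13, among them MSMO1 and FDFT1, and none was lower (none at an unadjusted p under 0.05 in edgeR, none called by DESeq2). Without cells with germ cell RNA, INSIG1 was lower (-0.80, adjusted p = 0.0170). WNT genes were higher in 6 and lower in 10 of 20. The inhibitor SFRP1 stood at 24.7, 49.7 and 15.1 CPM against 603, 1144 and 645 (-4.96 ± 0.15, adjusted p = 2.28e-08), and RSPO3 and the receptor FZD1 were lower by 4.56 and 3.22. The retinoic acid-degrading CYP26B1 was lower (1.05 against 16.4 CPM), and ALDH1A1 was higher by 2.74.

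Basement membrane genes were lower in 12 of 17, led by FN1, fibronectin (2.27, 7.61 and 2.08 against 85.9, 259 and 67.9 CPM, -5.23 ± 0.15, adjusted p = 2.01e-08). Dissociation stress genes were lower in 14 of 17, with JUNB at 1973, 1206 and 1595 CPM against 4621, 3403 and 4003. Ligands to germ cells were lower in 8 of 10, with the chemokine CXCL12 at 5.89 ± 0.183 against 140 ± 67.3 CPM and IGF1 at 29.4 ± 2.86 against 184 ± 27.1. BMP and TGF-beta genes were lower in 11 of 21, among them the receptor TGFBR2 (8.58 against 81.3 CPM) and the BMP target ID2 (138 against 793 CPM).

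The members themselves were not uniform along KRT19, a keratin of surface epithelium and a gene of the rule. A KRT19 UMI was counted in 20.5%, 17.4% and 38.3% of members (77, 38 and 208 cells), against 3.44%, 3.70% and 9.42% of INHA-high cells. With each cell thinned to 3000 UMIs the shares of members were 11.98%, 9.05% and 31.4%. Summed KRT19 stood at 120, 108 and 382 CPM in members, and at 850, 2550 and 910 in UPK3B-positive cells. Members with a KRT19 UMI were deeper (medians of 8936, 8215.5 and 7050 UMIs against 7096, 7218 and 5309) and lower in INHA (medians of 269, 306 and 0 CPM against 616, 796 and 308). The split was chosen after the data were seen, and the levels below leave out cells with germ cell RNA and have no test.

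Of 4788 genes at 20 CPM or more, 34 (0.710%) were at least 2-fold higher in KRT19-positive members of 3 of 3 libraries, and 62 (1.29%) at least 2-fold lower. KRT13, uncertain as said above, stood at 214, 298 and 448 CPM in KRT19-positive members and at 5.68, 5.41 and 14.1 in the rest. It read 589 CPM in the UPK3B-positive cells of E15.5. GPM6A stood at 39.5, 132 and 156 CPM against 3.06, 0 and 12.2, and at 470 in UPK3B-positive cells. LHX9 stood at 161, 222 and 279 CPM against 39.4, 16.9 and 62.6, and at 456 in UPK3B-positive cells. For each of these genes the KRT19-positive members lay between the other members and the UPK3B-positive cells. KRT7 (24.5, 67.8 and 123 CPM against 5.68, 3.38 and 10.8), CRIP1, a LIM domain protein (49.01, 48.97 and 96.4 against 5.68, 5.41 and 8.48), and LGR5 (24.5, 30.1 and 49.8 against 4.81, 1.35 and 8.95) had the same order. UPK3B, which the rule held below 2 UMIs per cell, stood at 8.17, 3.77 and 15.3 CPM against 2.19, 0 and 0.471.

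AMH and NR5A2, genes of granulosa differentiation, lay on the other side, as did KITLG. AMH stood at 30.0, 41.4 and 18.5 CPM in KRT19-positive members and at 75.2, 172 and 65.5 in the rest. NR5A2 stood at 17.7, 41.4 and 14.7 CPM against 75.2, 150 and 41.9, and KITLG at 134.8, 33.9 and 90.7 against 283, 263 and 203. FOXL2 stood at 19.1, 7.53 and 8.94 CPM against 38.0, 37.2 and 30.1. Each of these was lower in the KRT19-positive members of all 3 libraries. FOXL2 is a gene of the rule, and members without a KRT19 UMI had to reach the sum of 3 through the other supporting genes. Its direction therefore supports nothing. EMX2 (389, 305 and 391 against 372, 384 and 385 CPM) and GATA4 (53.1, 41.4 and 39.6 against 51.6, 41.2 and 38.6) differed little. ALDH1A2 stood at 317, 286 and 245 CPM against 239, 189 and 171.

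**Figure D4:**
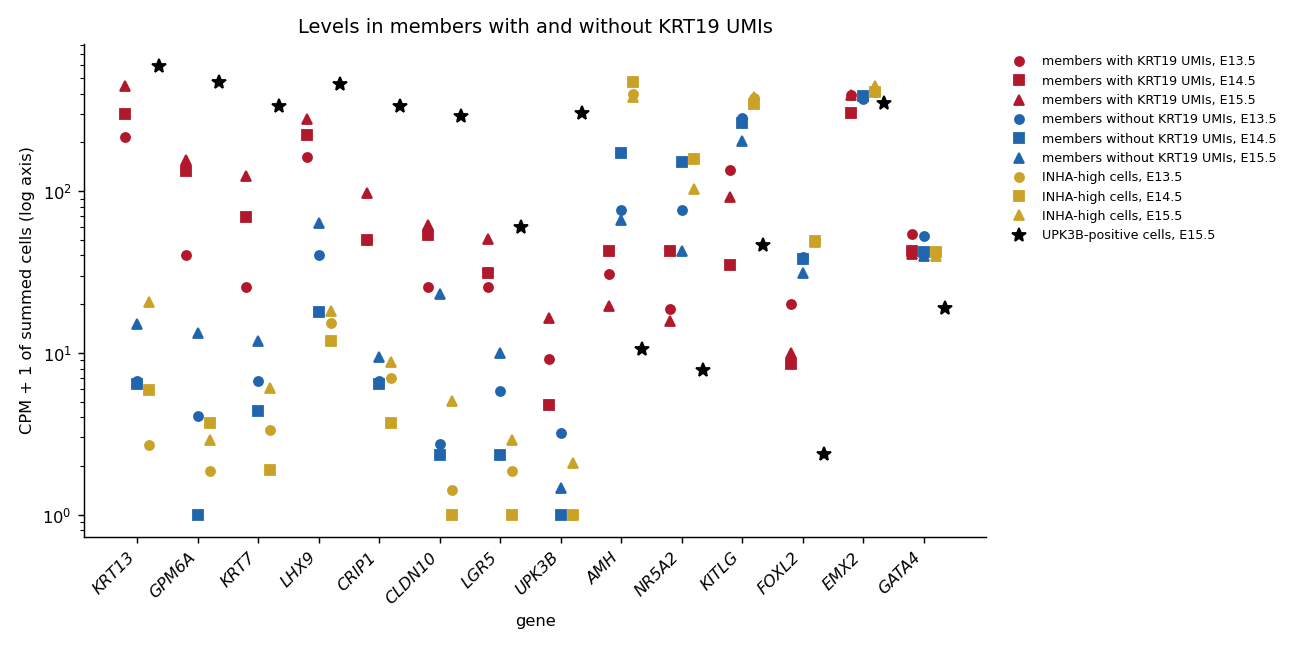
Levels of 14 genes (CPM + 1 of summed cells, log axis) in members with and without a KRT19 UMI and in INHA-high cells, with a marker shape for each library, and in UPK3B-positive cells of E15.5 (stars). KRT13, GPM6A, KRT7, LHX9 and LGR5 are higher in KRT19-positive members of every library, AMH, NR5A2, KITLG and FOXL2 are lower, and EMX2 and GATA4 are nearly level.

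Between the stages of the mouse cells there was 1 library each, so no test was made, and stage, library preparation and sort cannot be told apart. Values are CPM of summed members, some with exact Poisson 95% intervals, which cover counting error only. Genes were counted when they differed by 2-fold or more on the log2(CPM + 1) scale and reached 20 CPM in 1 library. E14.5 exceeded E13.5 for 184 of 5014 genes (3.67%) and was below it for 166 (3.31%). E15.5 exceeded E13.5 for 78 of 4911 (1.59%) and was below it for 74 (1.51%), and it exceeded E14.5 for 263 of 5074 (5.18%) and was below it for 239 (4.71%). Under TMM scaling in place of total UMIs, the median of all genes went from 0.06 to -0.06 for E14.5 over E13.5, and from -0.02 to 0.09 for E15.5 over E14.5.

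Part of these counts lay with the few cells that held germ cell RNA. Without them, 38 of the 184 genes higher in E14.5 and 147 of the 166 lower kept a 2-fold difference from E13.5. The 8 genes most in excess in E14.5 were AREG, RHOXF1, NPY, LY6K, CDKN1C, KHDC1L, PAGE1 and PAGE2B, some of which belong to germline-expressed families with close copies and are uncertain. Without the cells holding germ cell RNA their log2 differences were between -1.58 and 1.102. The genes described next were therefore named outside the rule, after their values were seen, from members without germ cell RNA. They do not include every large difference.

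In E15.5 the largest excess over E13.5 was CELA1, an elastase, at 1.32 CPM (0.36 to 3.39) in E13.5, 2.29 (0.62 to 5.87) in E14.5 and 81.1 (72.1 to 90.8) in E15.5. INHA-high cells were also highest in E15.5, at 2.99, 1.35 and 84.3 CPM, while stromal cells held 1.69, 1.73 and 4.53. CELA1 was thus high in E15.5 in both INHA classes. GPM6A and KRT7, both higher in KRT19-positive members, stood at 11.9, 20.1 and 73.2 CPM and at 10.3, 13.2 and 58.3, and CCL5 at 22.5, 40.7 and 109. Stromal cells were also lowest in E13.5 for these 3 genes, at 2.25, 50.05 and 51.9 CPM of GPM6A, 1.97, 18.1 and 35.5 of KRT7, and 5.91, 24.2 and 27.5 of CCL5. In members without a KRT19 UMI the log2 differences of GPM6A and KRT7 between E15.5 and E13.5 were 1.69 and 0.81, against 2.69 and 2.48 in all members. ISL1, a LIM homeobox factor, stood at 3.97, 1.15 and 21.7 CPM, at 1.07, 0 and 1.88 in INHA-high cells, and at 2.54, 6.90 and 17.4 in stromal cells.

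Lower in E15.5 than in E13.5 were RNF152, a ubiquitin ligase (111, 50.4 and 15.45 CPM over the 3 stages), SOCS3, a cytokine signalling inhibitor (51.0, 20.1 and 9.76), PRC1, a protein of cell division (21.2, 22.3 and 3.80), and TNNC1, a troponin (50.6, 57.3 and 11.9). RNF152 had the same order in INHA-high cells, at 107, 41.8 and 10.2 CPM, as did SOCS3, at 55.9, 14.8 and 11.8. PRC1 did not, at 4.91, 2.69 and 13.9 CPM. TNNC1 had the order of the members in INHA-high cells too, at 90.5, 94.3 and 25.5 CPM. MTRNR2L5 (322, 170 and 41.7 CPM) and the histone H4C9 (163, 99.7 and 33.9) have near-identical copies and are uncertain.

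E14.5 stood lowest of the 3 libraries for several genes. CEBPD, a transcription factor, stood at 65.9, 7.45 and 20.3 CPM, and HAND2, another, at 25.2, 2.29 and 6.24. Both were also lowest in the E14.5 library among stromal cells and among INHA-high cells. WFDC1, a secreted protease inhibitor-like protein, stood at 27.8, 1.72 and 21.96 CPM, and GADD45G at 53.3, 5.16 and 15.2. INHA-high cells were also lowest in E14.5 for WFDC1 (6.83, 1.35 and 5.10 CPM) and GADD45G (59.75, 11.67 and 24.68). On the high side of E14.5 were DSP, the desmosome protein desmoplakin (4.63, 23.5 and 8.94 CPM), PRSS23 (39.4, 138 and 55.6) and CDCA8, a mitotic protein (12.6, 47.0 and 5.69). BDNF (0.993, 21.2 and 0 CPM) and BASP1 (4.96, 34.4 and 9.76) exceeded E13.5 by a larger ratio. For DSP and CDCA8, INHA-high cells were highest in E15.5, at 8.96, 17.5 and 30.3 CPM and at 4.69, 5.39 and 11. PRSS23 was highest in E14.5 in INHA-high cells as well (182, 245 and 161 CPM), and in stromal cells (66.2, 76.8 and 72.1).

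By list, 8 granulosa differentiation genes that reached 20 CPM had a median of 0.57 in E14.5 over E13.5, beside 0.06 over all genes. Of these, 1 was at least 2-fold higher in E14.5, as were 3.67% of all genes. Against E14.5, 5 of 8 were at least 2-fold lower in E15.5 (median -1.06, beside -0.02 over all genes), led by NR5A2. Over all genes, 4.71% were at least 2-fold lower in E15.5 than in E14.5. AMH stood at 63.0, 142 and 43.8 CPM. In G2 and M phase 2 of 4 genes were at least 2-fold lower in E15.5 (median -1.07), led by TOP2A. In cholesterol synthesis 4 of 8 were at least 2-fold lower in E15.5 (median -0.93, or -0.57 without germ cell RNA), led by CYP51A1. LHX9 ran the other way, at 67.9, 43.1 and 154 CPM. The members' INHA moved with the granulosa genes, with medians of 507, 699 and 188 CPM per cell and no INHA UMI in 21.5%, 11.4% and 40.5% of members. Its part in these stage differences was not tested.

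**Figure D5:**
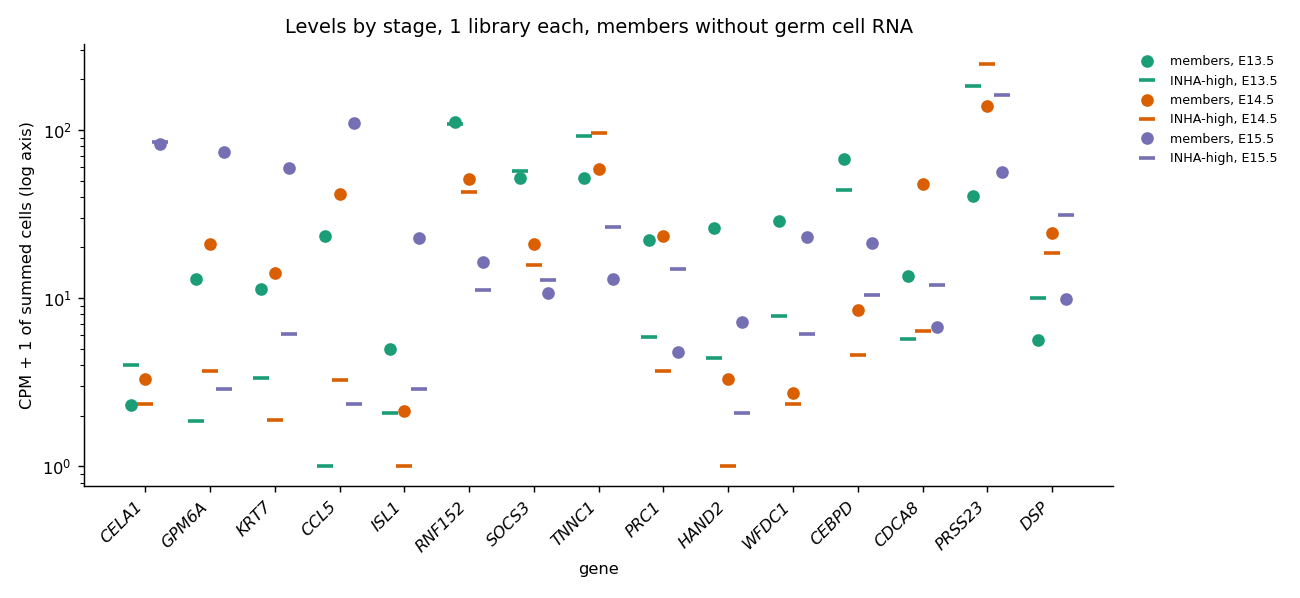
Levels of 15 genes (CPM + 1 of summed cells, log axis) in members without germ cell RNA (points) and in INHA-high cells (dashes), coloured by library, with 1 library for each stage and no error drawn. Among members, CELA1, GPM6A, KRT7 and CCL5 are highest in E15.5, RNF152 and SOCS3 are highest in E13.5, and CEBPD and HAND2 are lowest in E14.5.

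The members made up 22.9% (20.9 to 24.99, exact Clopper-Pearson 95% interval), 30.5% (27.2 to 34.1) and 31.2% (29.1 to 33.5) of mouse barcodes. Of members and INHA-high cells together they were 39.2%, 47.4% and 54.9%. The share depends on the INHA limit. At 1000 CPM it was 17.8%, 20.6% and 26.6%, and at 2000 CPM it was 27.9%, 39.7% and 34.8%. E14.5 thus stood below E15.5 at 1000 CPM and above it at 2000 CPM. Their intervals overlapped at the limit of the rule and at 2000 CPM. At 1000 CPM they did not (17.7 to 23.8 in E14.5 and 24.5 to 28.7 in E15.5). The intervals cover the counting of cells within a library only, so they cannot decide whether the stages differ. With each cell thinned to 3000 UMIs, which left out 82, 49 and 211 shallower mouse barcodes, the shares were 21.4%, 27.7% and 32.5%. Without the KRT19-positive members they were 18.2%, 25.2% and 19.3%. E13.5 had the lowest share in each of these settings, and the part that the sort and the mixing of cells had in these shares was not tested.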

How the data were processed

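The deposited matrices give UMI counts, not normalized, of called barcodes, which the authors produced by running Cell Ranger 6.0.1 (version per the file headers). Genome build and annotation: not given in the sources used here. Of 9282 features with LOC names, 669 were named through their gene number, UPK3B among them. Barcodes were classed by the limits of the rule. The rule was set on these counts, and the members, gene lists and comparisons were chosen with earlier results of these data known.

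UMIs were summed per library and class, giving 9 sums (UPK3B-positive cells, under 20 in 2 libraries, were left out) with 4 residual degrees of freedom. The 33 genes of the limits were left out of the tests. edgeR 4.0.16 (R 4.3.3, limma 3.58.1) was run with its default filter on low counts, TMM scaling and the library as a block. The fit was also run on simulated sums with planted changes. That simulation did not cut classes from the tested cells, so it cannot show how this choice affects the calls. DESeq2 1.42.0, other limits, and fits without each library, without cells with germ cell RNA and without KRT19-positive members were alternatives. Stages have 1 library each and were not tested. Intervals are exact at 95% and cover counting error only. Python 3.11.15 with numpy 2.4.6, scipy 1.17.1, pandas 2.3.3 and matplotlib 3.10.9 did the rest.

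Named genes are the 10 with the largest change in each direction among called genes that differed the same way in 3 of 3 libraries and reached 20 CPM in 1 class, and up to 4 called members of each list. Between stages they are the 8 with the largest ratio in each direction and the largest member of each list. List members at 20 CPM or more could be added to describe a list. Some items are not reported here.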

Additional observations from a re-analysis of the deposited data

Results flagged for a closer look

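TOP2A, a topoisomerase of dividing cells, differed between members and INHA-high cells in opposite directions in the E14.5 and E15.5 libraries. The log2 ratio of CPM + 1 was 2.52 in E14.5 and -1.15 in E15.5, with 1.43 in E13.5. In stage order, members held 47.8, 51.3 and 15.6 CPM and INHA-high cells 17.1, 8.08 and 36.0. Without cells that held germ cell RNA the ratios were 1.21, 2.56 and -1.60. The difference between the libraries was not tested, since each stage is 1 library, and TOP2A was not called between the classes over the 3 libraries (edgeR adjusted p = 0.408).

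Of the 643 cell barcodes that E13.5 and E15.5 shared, 641 lay outside the members of both libraries.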

How the results depend on the processing

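Calls against INHA-high cells depended on the settings: with each library left out in turn 11 of the 20 genes named by size and 1 of 37 list members kept the call, with no library block 6 and 1, and without E15.5 alone 41 named genes lost it. Against stromal cells all 20 and 42 of 57 kept it with each library left out. Against INHA-high cells, 357 genes were higher and 394 lower. These counts were 843 and 675 with no filter on low counts, 170 and 169 without KRT19-positive members, 70 to 481 and 65 to 384 with each library left out, and 43 and 13 in the fit with no library block, that is without pairing the classes of a library. Among fits without a library, counts were low without E13.5 (70 and 65) and E15.5 (74 and 83). Against stromal cells (1474 and 1585), they were 929 higher with DESeq2, 648 and 858 with no library block, and 613 to 1327 and 823 to 1696 with each library left out, lowest without E13.5. 

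For E14.5 against E13.5 (184 and 166), the counts were 56 and 86 at 50 CPM or more, 47 and 266 without germ cell RNA, and 62 and 273 without KRT19-positive members. For E15.5 against E13.5 (78 and 74), they were 27 and 31 at 50 CPM, and 48 higher without germ cell RNA. For E15.5 against E14.5 (263 and 239), they were 139 and 91 at 50 CPM, and 141 lower without KRT19-positive members. Shares of members by stage (22.9%, 30.5% and 31.2%) were 17.8%, 20.6% and 26.6% at an INHA limit of 1000 CPM, 27.9%, 39.7% and 34.8% at 2000 CPM, and 18.2%, 25.2% and 19.3% without KRT19-positive members.

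Log2 differences of 2-fold or more between stages reversed or came to 0 in 25 cases. A smaller one, INSIG1 in E14.5 over E13.5 (0.96), came to -0.57 without germ cell RNA and -0.23 without KRT19-positive members. Without germ cell RNA and without KRT19-positive members, E14.5 over E13.5 gave -0.079 and -0.16 for NPY, -0.73 and -0.52 for LY6K, -1.58 and -1.44 for CDKN1C, -0.66 and -0.16 for PAGE1, and -0.54 and -0.31 for PAGE2B. In the same settings E15.5 over E14.5 gave 1.44 and 1.62 for NPY, 0.31 and 0.92 for CXCL14, 1.35 and 1.62 for COX4I1, and 0.91 and 1.38 for PAGE2B, and 0.025 for RNF181 without KRT19-positive members. E15.5 over E13.5 gave 0 for CCNA1 and ZSCAN5B without germ cell RNA and with a supporting gene sum of at least 5, -0.12 for H1-3 without germ cell RNA, and -0.053 for STAR without KRT19-positive members. The cause was not tested. The comparison with UPK3B-positive cells and the split by LGR5 were not run, for too few cells. The setting without KRT19-positive members was added after seeing the data. No paired analysis beyond the library block was possible because each stage has 1 library.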
